A study of Arabidopsis thaliana with 12 samples.

Results

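Small RNA over annotated nuclear genes was compared between Arabidopsis thaliana xrn3-8, a mutant of the nuclear 5′-to-3′ exoribonuclease XRN3, and wild-type Col-0. The 6 libraries were 3 per genotype, all from 14-day seedlings grown on MS plates. They are 6 of the 12 libraries of the series. The other 6, again 3 per genotype, are RNA-seq libraries of 21-day seedlings grown on soil and serve here as a second readout of the same genes in other plants. The series title asks how defective termination of transcription by XRN3 affects protein-coding genes. The labels name the mutant by its allele and give no transgene, treatment or further allele in either genotype.

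Plant small RNAs are cut from double-stranded RNA by DICER-LIKE enzymes and loaded into ARGONAUTE proteins, and they include microRNAs and small interfering RNAs. Coding RNA that has lost its cap or tail, or has been cut, can be copied into double-stranded RNA by an RNA-dependent RNA polymerase, and exoribonucleases compete for the same RNA. Small RNA counted over a protein-coding gene can therefore be silencing small RNA, a microRNA that matches the gene, or a fragment of its RNA. The counts do not separate these, because read length and strand were not in the tables.

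Each table held 37184 rows, of which 36899 were nuclear features. Library sizes were taken without XRN3 itself and lay between 5715837 and 6652614 counts. XRN3 (AT1G75660) served as the check of the genotype labels. It held 276, 790 and 350 counts in the Col-0 libraries and 538823, 573638 and 706264 in the xrn3-8 libraries, which is 7.57% to 10.1% of nuclear counts in the mutant. All further values leave XRN3 out. Protein-coding genes held 13.5% to 17% of the remaining counts in every library. The library of xrn3-8 replicate 3 stood apart in its composition, with 6.97% of counts over ribosomal RNA against 24.3% to 30.7% in the other 5 libraries and 4.59% over tRNA against 11.5% to 14.5%. Its share over lncRNA features was 28.6%, against 14.3% to 16.7% elsewhere. The counts of called genes are therefore also given without that library, as are the calls of named genes that it changes.

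**Figure D1:**
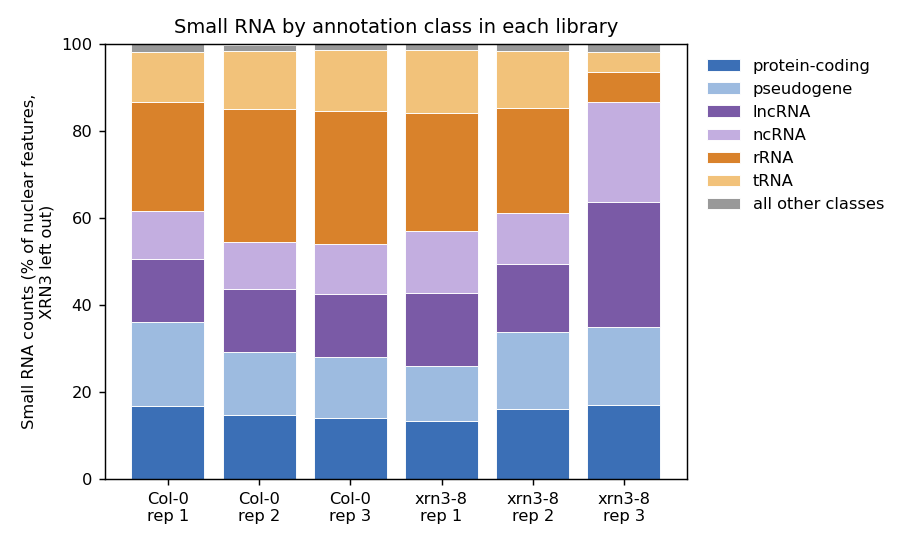
Stacked bars give the percent of small RNA counts over nuclear features, XRN3 left out, by annotation class for each of the 6 libraries. In xrn3-8 replicate 3 ribosomal RNA takes 6.97% and lncRNA 28.6%, while the protein-coding share stays within 13.5% to 17% in all libraries.

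Small RNA was higher in xrn3-8 over many more protein-coding genes than it was lower. Of 27443 protein-coding genes, 4466 had enough counts to be tested, and 2488 held 0 counts in all 6 libraries. Genes were called with edgeR's quasi-likelihood test at a Benjamini-Hochberg adjusted p under 0.05. The adjustment ran over all 9133 nuclear features tested, XRN3 included. Of the protein-coding genes, 482 were higher (10.8% of those tested) and 60 were lower (1.34%). Over all nuclear features, 556 (6.09%) were higher and 93 (1.02%) were lower, and 503 (5.21%) and 140 (1.45%) without xrn3-8 replicate 3. The 3 libraries of one genotype did not overlap with those of the other for any of the 482 or the 60 genes. This adds little, since the genes were called by a test on these same libraries. Genes that were not called could also lack overlap, such as AT5G36210 (adjusted p = 0.40 in edgeR). Of the higher genes, 449 rose at least 2-fold and 126 at least 8-fold. Of the lower genes, 36 fell at least 2-fold and 9 at least 8-fold. The median log2 fold change was 2.18 over the higher genes and -1.22 over the lower genes, beside 0.02 over all tested protein-coding genes.

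The genes that rose mostly started from very little small RNA. Their median level was 0.978 CPM (counts scaled to 1000000 per library) in wild type and 5.22 CPM in xrn3-8, while that of the lower genes was 22.1 and 7.98 CPM. The 482 higher genes together held 0.204% to 0.267% of counts in the Col-0 libraries and 0.778% to 1.14% in the xrn3-8 libraries. The 60 lower genes held 0.233% to 0.296% and 0.106% to 0.163%. No Col-0 library reached 10 counts for 268 of the higher genes (55.6%), so those passed the filter on low counts through the mutant libraries alone. The same was true of 406 of all 4466 tested genes (9.09%). Likewise no xrn3-8 library reached 10 counts for 13 of the 60 lower genes (21.7%), against 37 of all tested genes (0.828%). For this reason the counts of members given below for gene lists and classes are descriptions of the tested members.

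Without xrn3-8 replicate 3, 433 of 4931 tested protein-coding genes were higher (8.78%) and 89 lower (1.80%), and 401 of the 482 and 50 of the 60 genes were among them. Without xrn3-8 replicate 1 there were 443 higher and 57 lower genes, and without xrn3-8 replicate 2 there were 347 and 30. Without Col-0 replicate 1, 2 or 3, the higher genes numbered 258, 300 and 269 and the lower genes 22, 25 and 22. In each of the 6 fits that left out a library, 204 of the 482 and 18 of the 60 genes passed the threshold.

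**Figure D2:**
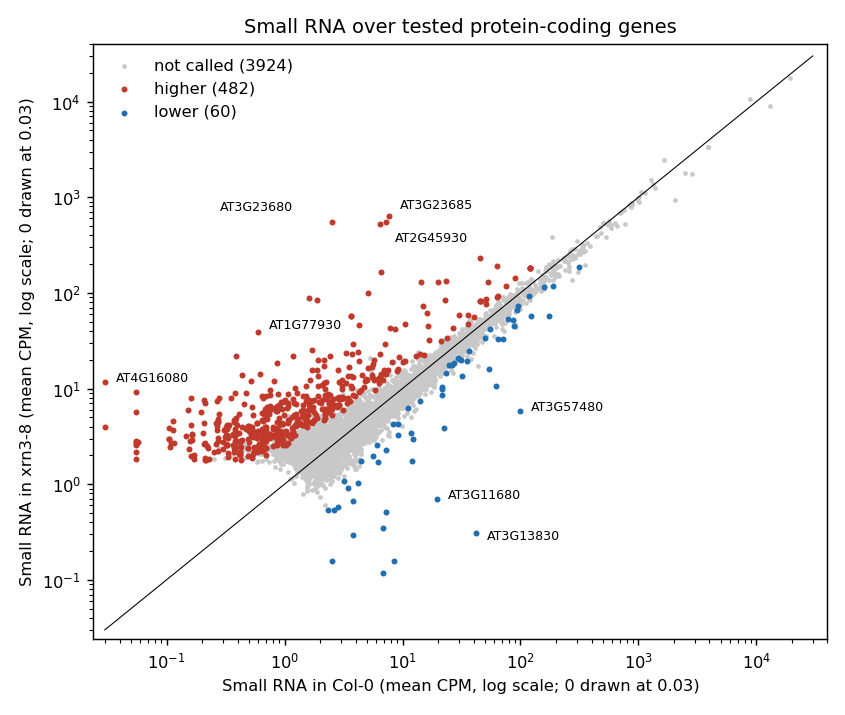
Each point is a tested protein-coding gene, with its mean small RNA level in Col-0 (x axis) and in xrn3-8 (y axis), n = 3, in CPM on log scales, and values of 0 drawn at 0.03. The 482 higher genes (red) lie mostly at low Col-0 levels, the 60 lower genes (blue) spread over a wider range, and the line marks equal levels.

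Outside protein-coding genes the calls are set beside the 6.09% higher and 1.02% lower over all nuclear features. Of 24 tested small nuclear RNAs, which form part of the splicing machinery, 11 were higher (45.8%) and 0 lower, with 11 higher also without xrn3-8 replicate 3. Transfer RNAs were higher for 26 of 355 (7.32%, near the background) and lower for 0, and for 21 without that library. Pseudogenes were called rarely, with 18 higher (0.506%) and 12 lower (0.337%) of 3557 tested, and lncRNA features gave 9 higher (2.86%) and 11 lower (3.49%) of 315. Without xrn3-8 replicate 3 the lower calls rose to 21 pseudogenes and 20 lncRNA features, beside 18 and 11 higher. Reads that match several loci may be counted at each, so features of one class are not independent.

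The strongest gains lay over genes with almost no small RNA in Col-0. AT4G16080 held 0 counts in each Col-0 library and 74, 57 and 89 in the xrn3-8 libraries. Its small RNA was at least 71.8-fold higher, against a floor of 3 counts over the Col-0 group. AT3G58910 likewise went from 0 throughout Col-0 to 21, 19 and 37 in the mutant, a rise of at least 25.1-fold. Neither locus is given a symbol in the reference. DOF4.4, a DOF-type transcription factor, had 0, 1 and 0 counts in wild type and 48, 59 and 71 in the mutant, a ratio of 174 (exact 95% interval 30.9 to 6930, counting error only). AT1G60690 held 0, 1 and 0 against 31, 34 and 45 counts, a ratio of 108 (interval 18.9 to 4290). RNA-seq of the older seedlings found 0 counts over DOF4.4 and AT3G58910 in all 6 libraries, and 1 count per genotype over AT4G16080.

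The largest levels among the strong gains belonged to neighbouring pairs of genes. AT3G23680 had Col-0 counts of 17, 15 and 15 and mutant counts of 3164, 3014 and 4274, a rise from 2.52 ± 0.0569 to 547 ± 64.5 CPM (SD, n = 3). That is 7.75 on the log2 scale (SE 0.16, adjusted p = 7.1e-07 in edgeR). The next gene in annotated order, AT3G23685, rose from 7.66 ± 1.43 to 636 ± 74.9 CPM, a log2 fold change of 6.37 (SE 0.19). Both were nearly silent in RNA-seq, where AT3G23680 held 3 counts over the mutant libraries (1, 0 and 2) and 0 in Col-0, and AT3G23685 held 0 throughout.

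AT2G45930 and its neighbour AT2G45940 formed the second such pair. AT2G45930 had wild-type counts of 42, 37 and 41 and mutant counts of 2896, 2498 and 4623, and AT2G45940 held 50, 39 and 47 against 3031, 2613 and 4847. Their log2 fold changes were 6.33 (SE 0.23) and 6.22 (SE 0.24). In every library the counts of this pair were close to each other, and whether the same reads were counted at both genes was not tested. The rule for named genes also took AT1G77930, given the synonym DJC65, with counts of 3, 2 and 6 in wild type and 183, 190 and 378 in the mutant, a log2 fold change of 5.99 (SE 0.39). APG2, which encodes the TatC subunit of the thylakoid protein translocase, held 1, 1 and 5 counts against 103, 113 and 208 (5.79, SE 0.46). All 10 of these genes passed the threshold in each fit that left out 1 library.

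The strongest losses were near-complete. AT3G13830 went from 327, 285 and 178 counts to 2, 1 and 3, a fall from 41.9 ± 9.74 to 0.312 ± 0.137 CPM (log2 fold change -6.97, SE 0.33, adjusted p = 2.7e-05 in edgeR). AT3G11680 went from 144, 100 and 121 counts to 2, 4 and 8 (log2 fold change -4.70, SE 0.30). AT4G10603 held 58, 53 and 47 against 0, 3 and 0, a ratio of 0.0186 (exact interval 0.0038 to 0.0554), and AT1G61320 held 52, 45 and 31 against 2, 0 and 0, a ratio of 0.0153 (0.00183 to 0.0564). In AT3G57480 the mutant libraries did not agree. Its counts were 698, 561 and 602 in wild type but 3, 2 and 117 in the mutant, where the last is replicate 3. Its log2 fold change was -4.04 with all libraries (adjusted p = 0.038) and -7.83 without that replicate (adjusted p = 8.2e-08). It passed in 2 of the 6 fits that left out a library.

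The remaining genes named by size of loss were AT1G12615 (-4.18), AT3G23633 (-3.76), AT5G56060 (-3.74) and AT4G10160 (-2.77), given as log2 fold changes, and AT1G55240, with 16, 19 and 12 against 0, 3 and 0 counts. AT3G23633 and AT1G55240 passed in 3 of the 6 fits without 1 library. Of the 60 lower genes, 12 carry a symbol in the reference, against 200 of the 482 higher genes. Those with known roles include ABH1, the large subunit of the nuclear cap-binding complex, which fell from 6.23 ± 2.52 to 1.70 ± 0.389 CPM (log2 fold change -1.88, adjusted p = 0.021). RHD2, an NADPH oxidase of root hair growth, fell by 2.09 on the log2 scale (adjusted p = 0.022, and 0.063 without xrn3-8 replicate 3). SIR, the sulfite reductase of sulfur assimilation, had a log2 fold change of -0.58, the desaturase gene FAD3 -0.97 (adjusted p = 0.048, and 0.089 without xrn3-8 replicate 3) and the arginase gene ARGAH2 -0.49. No list or named class held more than 1 lower gene. Lists and classes were matched on symbols and synonyms, so a lower gene without a telling name could not enter one. The count therefore does not show which functions the losses touch.

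**Figure D3:**
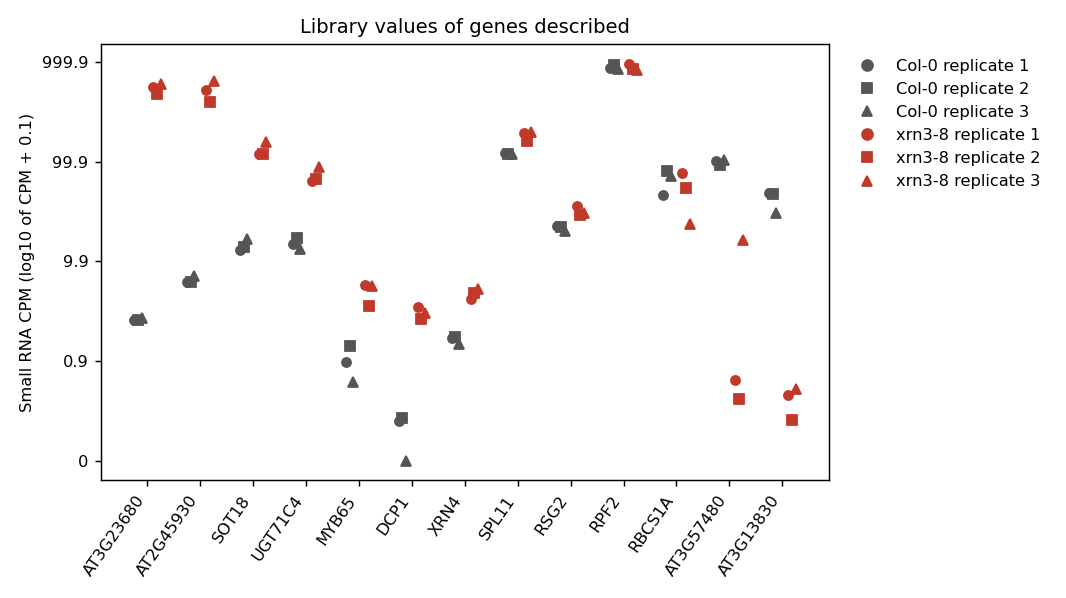
Each symbol is one library (Col-0 grey, xrn3-8 red, shape by replicate) and gives the small RNA level of a gene in CPM, drawn as log10 of CPM plus 0.1. AT3G23680, AT2G45930 and SOT18 are far higher in all 3 xrn3-8 libraries, RPF2 stays level, RBCS1A is lowest in xrn3-8 replicate 3, and AT3G57480 is low in 2 xrn3-8 libraries and at 16.4 CPM in replicate 3.

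Glycosyl transferases, which attach sugars to small molecules, were higher for 8 of 19 tested (42.1%, beside 10.8% of all tested protein-coding genes) and lower for 0. The class held 68 genes by name, and its tested members had a median log2 fold change of 0.86. UGT71C4 had 100, 104 and 76 counts in wild type and 354, 428 and 635 in the mutant, so every mutant library lay above every Col-0 library. Its level rose from 15.0 ± 2.07 to 73.3 ± 13.8 CPM (log2 fold change 2.29, SE 0.17, adjusted p = 0.00025). Its neighbour UGT71C3 rose by a log2 fold change of 2.62 and UGT71C2 by 2.18. UGT73B2 and UGT73B3, flavonoid glucosyltransferases that also lie side by side, rose by 1.78 and 2.12. DOGT1, which glucosylates brassinosteroids, rose by 1.13. UGT71B5 (1.03) and UGT84A3 (1.15) no longer passed without xrn3-8 replicate 3 (adjusted p = 0.052 and 0.062), which left 6 of 20 tested.

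SOT16, SOT17 and SOT18, the sulfotransferases of the last step of glucosinolate core synthesis, were singled out after their values were seen. SOT18 had wild-type counts of 88, 84 and 96 and mutant counts of 661, 751 and 1109, a log2 fold change of 3.18 (SE 0.16). Its neighbour SOT16 rose from 5.13 ± 1.68 to 99.7 ± 13.5 CPM (4.27, SE 0.22), and SOT17, elsewhere on the same chromosome, from 0.476 ± 0.122 to 3.82 ± 0.833 CPM (2.95, SE 0.38). They were 3 of the 4 tested genes with an SOT symbol. In the RNA-seq of older seedlings the RNA of all 3 was lower in xrn3-8, with log2 fold changes of -1.55 for SOT16, -1.43 for SOT17 and -1.09 for SOT18.

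Cytochrome P450 genes, whose products oxidise metabolites, were higher for 5 of 41 tested (12.2%) and lower for 0, near the background of 10.8%. CYP81D11 rose by a log2 fold change of 2.62 and CYP86A8, a fatty acid hydroxylase, by 2.23. The neighbours CYP706A6 and CYP706A5 rose by 1.87 and 1.56. Without xrn3-8 replicate 3, 3 of 44 passed, and CYP706A5 (adjusted p = 0.090) and CYP72A11 (0.083) did not. Among 11 tested peroxidases and glutathione transferases, GSTU5 (2.21) and TL29 (1.45) were higher. AO1 and AAO2, a pair of aldehyde oxidase genes picked after their values were seen, rose by 3.44 (SE 0.19) and 3.17 (SE 0.31).

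Genes named as transcription factors, among them a few general transcription proteins, were higher for 22 of 147 tested (15.0%) and lower for 0, and for 19 of 161 (11.8%) with 1 lower without xrn3-8 replicate 3. Without the listed microRNA-target genes the share was 14 of 126 (11.1%), close to the background of 10.8%, and 11 of 137 without that library. Unlisted members of the same families, such as other ARF and NAC genes, stay among the 126. MYB73 was higher in small RNA (log2 fold change 1.70, adjusted p = 0.0015). The NAC-domain genes NAC102 and ATAF1 rose by 3.11 and 2.17, and GATA10 by 3.89. BHLH101, a regulator of the iron deficiency response, went from 3 counts over the Col-0 group to 63 over the xrn3-8 group, a ratio of 20.6 (exact interval 6.73 to 102). NPH4, the auxin response factor ARF7, rose by 1.66, and ARF1 by 1.56. ARF1 did not pass without xrn3-8 replicate 3 (adjusted p = 0.075).

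Transcription factors that microRNAs target were higher for 9 of 29 tested of 69 listed (31.0%, beside 10.8% of all tested protein-coding genes), and for 9 of 32 without xrn3-8 replicate 3. The SPL genes, which drive the change from juvenile to adult growth and are targeted by miR156, gave 6 of the 9, with 8 of 11 tested. SPL11 stood at 123, 118 and 120 CPM in wild type and 193, 160 and 197 CPM in the mutant (log2 fold change 0.60, SE 0.11, adjusted p = 0.014). SPL2, SPL9 and SPL10 held almost the same count as SPL11 in every library, differing by at most 3% or 1 read, and SPL13A and SPL13B (0.86 each) also matched each other. The 6 calls are therefore 2 sets of counts and not 6 measurements. The other 3 were TCP24 (2.83, SE 0.32), a leaf growth factor targeted by miR319, and MYB33 (2.32, SE 0.35) and MYB65 (2.41, SE 0.40), both targeted by miR159. MYB65 went from 6, 8 and 3 counts to 32, 22 and 40. It therefore passed the filter on low counts through the mutant libraries alone. TCP24, with a Col-0 mean of 0.648 CPM, may have done so too. The share of 31.0% rests in part on such members and on the matching SPL counts. TCP24, MYB33 and MYB65 each lay beside another protein-coding gene that also rose.

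The most heavily read target genes did not pass the test. NAC080 and NAC100, targets of miR164 with matching counts, stood at 3860 ± 387 CPM in Col-0 and 3320 ± 547 in xrn3-8 (log2 fold change -0.22, adjusted p = 0.71). HAM1, a target of miR171, stood at 172 ± 25.6 and 189 ± 26.2 CPM. Of the other microRNA targets, which are enzymes, receptors and transporters, 7 of 23 were tested and 0 called in edgeR or DESeq2, with 1 at an unadjusted p under 0.05. PHO2, the phosphate-signalling conjugase targeted by miR399, stood at 120 ± 14.4 and 110 ± 28.2 CPM. The auxin receptors AFB2 and AFB3, targeted by miR393, were called lower without xrn3-8 replicate 1. AFB3 stood at 35.3 ± 2.38 CPM in wild type and at 27.4, 23.8 and 14.9 CPM in the mutant, and AFB2 at 38.8 ± 2.80 against 41.7, 26.9 and 26.0 CPM.

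Among genes that are known sources of secondary small RNA, the pentatricopeptide repeat genes gave no calls and 2 resistance genes with a matching name were higher. In the clade of pentatricopeptide repeat genes that yields phased small RNA, 10 of 30 listed genes carry a matching name in the reference, and 8 of these were tested. In edgeR, in DESeq2 and with any library left out, 0 were called, and 0 had an unadjusted p under 0.05. Of all 30 listed genes 25 were tested, 0 were called in the same fits and 3 had an unadjusted p under 0.05. The summed level of the 10 genes with a matching name was 4850 to 5150 CPM in Col-0 and 4700 to 5400 CPM in xrn3-8. AT1G63130 held 1320, 1400 and 1310 CPM in Col-0 and 1480, 1320 and 1330 in xrn3-8 (log2 fold change 0.04, SE 0.13). RPF2, a mitochondrial RNA processing factor, stood at 877 ± 40.6 and 880 ± 69.6 CPM. The list of disease resistance genes held 15, of which 8 carry a matching name. Of 6 tested disease resistance genes with small RNA, AT1G51480 (0.78) and AT5G43730 (0.57), which the reference names RSG1 and RSG2, were higher (33.3%, beside 10.8% of all tested protein-coding genes), also without xrn3-8 replicate 3. The other 4 had log2 fold changes of -0.33 to -0.59 and did not pass, so the median over these 6 genes was -0.43, and -0.23 without that library. Of the 6 genes, 4 had an unadjusted p under 0.05. Of the 7 listed genes without a matching name, 3 were tested and AT5G43740 was higher. RPP5, a receptor of the downy mildew pathogen, stood at 112 ± 5.29 and 77.5 ± 22.2 CPM (log2 fold change -0.53, adjusted p = 0.22), and SNC1 and RPP4 of the same gene cluster at 99.4 ± 5.25 against 68.2 ± 18.1 and 105 ± 2.60 against 83.5 ± 21.2 CPM. The summed level of the 8 genes with a matching name was 350, 339 and 359 CPM in the Col-0 libraries. It was 310, 320 and 206 CPM in the xrn3-8 libraries, lower in every mutant library and lowest in replicate 3. Loci of the TAS and MIR type are not analysed here.

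Genes of the small RNA pathway itself gave no calls. Of 25 RNA silencing genes 5 were tested and 0 were called in edgeR, in DESeq2 or with any library left out, with 1 at an unadjusted p under 0.05. AGO2, whose RNA is targeted by miR403, stood at 64.5 ± 12.5 CPM in wild type and 66.9 ± 5.22 in xrn3-8. AGO1, the main carrier of microRNAs and itself a target of miR168, stood at 29.4 ± 1.23 and 25.5 ± 3.32 CPM, and DCL1, the enzyme that makes microRNAs, at 11.7 ± 1.24 and 12.8 ± 0.514 CPM.

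RNA decay genes were higher for 4 of 7 tested (57.1%, beside 10.8% of all tested protein-coding genes) and lower for 0, and for 3 of 8 without xrn3-8 replicate 3. The list held 18 genes, of which 14 carry a matching name and none of the other 4 was tested. DCP1, a partner of the decapping enzyme, went from 2 counts over the Col-0 group to 56 over the xrn3-8 group, a ratio of 27.4 (exact interval 7.25 to 232). With so few Col-0 counts, DCP1 passed the filter on low counts through the mutant libraries alone. Members tested in this way raise the share of 57.1%. XRN4, the cytoplasmic relative of XRN3, stood at 1.61, 1.65 and 1.38 CPM in wild type and 4.11, 4.73 and 5.19 CPM in the mutant (log2 fold change 1.58, SE 0.26, adjusted p = 0.010). The nuclear exosome helicases HEN2 and MTR4 rose by 1.82 and 2.0, from Col-0 means of 1.02 and 0.698 CPM. At such low Col-0 levels HEN2 and MTR4 may also have been tested through the mutant libraries alone. MTR4 did not pass without xrn3-8 replicate 3 (adjusted p = 0.056). RNA-seq log2 fold changes of these 4 genes lay between 0.10 and 0.26. These are levels of a few CPM, beside 68.0 ± 1.98 and 63.1 ± 6.08 CPM for EMB2763 (AT2G17510), the most abundant tested member of the list, which was not called (log2 fold change -0.11).

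Transport and degradation genes gained small RNA in single members. Of 48 tested transporters and aquaporins 9 were higher (18.8%, beside the background of 10.8%) and 1 lower, and 10 and 1 of 53 without xrn3-8 replicate 3. The nucleotide sugar transporter AT1G34020, named URGT6, rose from a mean of 0.380 to one of 8.89 CPM (4.49, SE 0.36). The summed count of the amino acid transporter ANT1 went from 1 to 35, a ratio of 34.3 (exact interval 5.76 to 1390). The auxin exporter PIN4 rose by 1.28, the ammonium transporter AMT1;2 by 1.39 and the potassium transporter HAK5 by 0.84. The lower member was UMAMIT17, at -1.50. The class of F-box genes, the substrate receptors of ubiquitin ligases, was matched by name and held 31 genes. F-box genes without such a name fall outside it, whether they gained or lost small RNA. Of 9 tested members, 3 were higher (33.3%, beside 10.8%), also without xrn3-8 replicate 3. AT5G42350 and AT5G42360, neighbours named CFK1 and CFK2, rose by 4.44 and 4.45, and VFB3 by 2.47. In the rest of the ubiquitin system, 1 of 30 was higher (3.33%), and 1 of 38 was higher and 1 lower without that library.

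Auxin-responsive genes were higher for 5 of 29 tested (17.2%, beside 10.8% of all tested protein-coding genes) and lower for 0, and for 4 of 31 without xrn3-8 replicate 3. They were the response factors NPH4 and ARF1, AT4G34780 and AT4G34790, neighbours named SAUR2 and SAUR3, and SAUR22. AT4G34780 rose from 0.276 ± 0.209 to 8.05 ± 1.91 CPM (4.81, SE 0.44). Of 60 tested protein kinases, 5 were higher (8.33%, beside the background of 10.8%) and 0 lower, and 6 of 72 were higher and 1 lower without xrn3-8 replicate 3. With metabolic kinases and kinase-binding proteins, whose names also hold the word kinase, the share was 5 of 84 (5.95%). The higher kinases include AT3G57710 (2.82), named RKS1, the receptor-like kinase HERK2 (2.85) and CIPK20 (1.34).

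Photosynthesis, ribosomal protein and tubulin genes, whose RNA is abundant in seedlings, gave few calls. The median RNA-seq level of the tested members in Col-0 was 1750, 283 and 149 CPM, beside 14.0 CPM over all tested protein-coding genes. Of 45 tested nuclear photosynthesis genes 1 was higher (2.22%, beside 10.8% of all tested protein-coding genes) and 0 lower (beside 1.34%), with a median log2 fold change of -0.37 that became -0.04 without xrn3-8 replicate 3. The summed level of the list was 903, 1530 and 1560 CPM in the Col-0 libraries and 1690, 959 and 465 CPM in the xrn3-8 libraries, lowest in replicate 3, the library with 6.97% ribosomal RNA. The member that rose was PSBX, a small subunit of photosystem II, from 7.13 ± 1.95 to 29.2 ± 5.19 CPM (log2 fold change 2.04, adjusted p = 0.0018). It lies beside RPA1A, a subunit of replication protein A, which rose by 2.51. Of 24 tested ribosomal protein genes matched by name, 0 were called in edgeR, 1 in DESeq2 and 3 at an unadjusted p under 0.05. A ribosomal protein gene without a telling name falls outside this class, whether called or not. Of all 4466 tested protein-coding genes, 1773 carry a symbol in the reference. The 12 tested tubulin genes gave 0 calls in either tool, with 1 at an unadjusted p under 0.05. None of these genes was called without xrn3-8 replicate 3 apart from PSBX. The small cysteine-rich peptides related to defensins, at a median RNA level of 0 CPM, also gave 0 calls over 13 tested genes in either tool, with 1 at an unadjusted p under 0.05.

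The remaining lists and classes gave at most 2 calls each, and their counts stand beside 10.8% higher over all tested protein-coding genes, or 8.78% without xrn3-8 replicate 3. Of 8 tested clock genes 2 were higher. PRR5, an evening repressor, rose by 2.52 (adjusted p = 0.012) and FKF1, a blue-light receptor of flowering time, by 2.09 (adjusted p = 0.040, and 0.058 without xrn3-8 replicate 3). EDS1, a regulator of salicylate defence, rose from 0.225 ± 0.195 to 2.38 ± 0.743 CPM (3.35, adjusted p = 0.020) as the 1 tested gene of its list. HSP70 (AT3G12580) rose by 1.49 but did not pass without that library (adjusted p = 0.081). The nitrate reductases NIA1 and NIA2, known sources of small RNA from coding transcripts, were not called, with NIA1 at 49.0 CPM in xrn3-8 replicate 1 and 2.53 to 12.1 CPM in the other 5 libraries. Among 3 tested cold and drought genes and 1 jasmonate gene 0 were called in edgeR or DESeq2, and 0 had an unadjusted p under 0.05. In fits that left out 1 library, at most 1 jasmonate gene and 0 cold and drought genes were called. None of the 8 dividing-cell markers and 9 flower and seed markers had enough counts to be tested, and their summed levels were at most 2.36 and 2.05 CPM in any library. Root markers (2 tested) and senescence markers (1 tested) gave 0 calls in edgeR or DESeq2, with 1 and 0 at an unadjusted p under 0.05. Of the remaining classes, lipid transfer and glycine- or proline-rich proteins gave 2 higher of 29 tested (6.90%), genes with the words unknown or DUF in their names 2 of 5 (40.0%), chaperones 1 of 16 (6.25%) and histones 0 of 2. These became 1 of 29, 1 of 5, 0 of 17 and 0 of 4 without xrn3-8 replicate 3. The chaperone class was matched by name and left out Hsp70-2, which was also higher. Genes with the symbol stem HSP gave 2 higher of 8 tested, HSP70 and Hsp70-2, and 1 of 8 without that library. The class counts therefore do not show that chaperones gained small RNA less often than other genes.

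**Figure D4:**
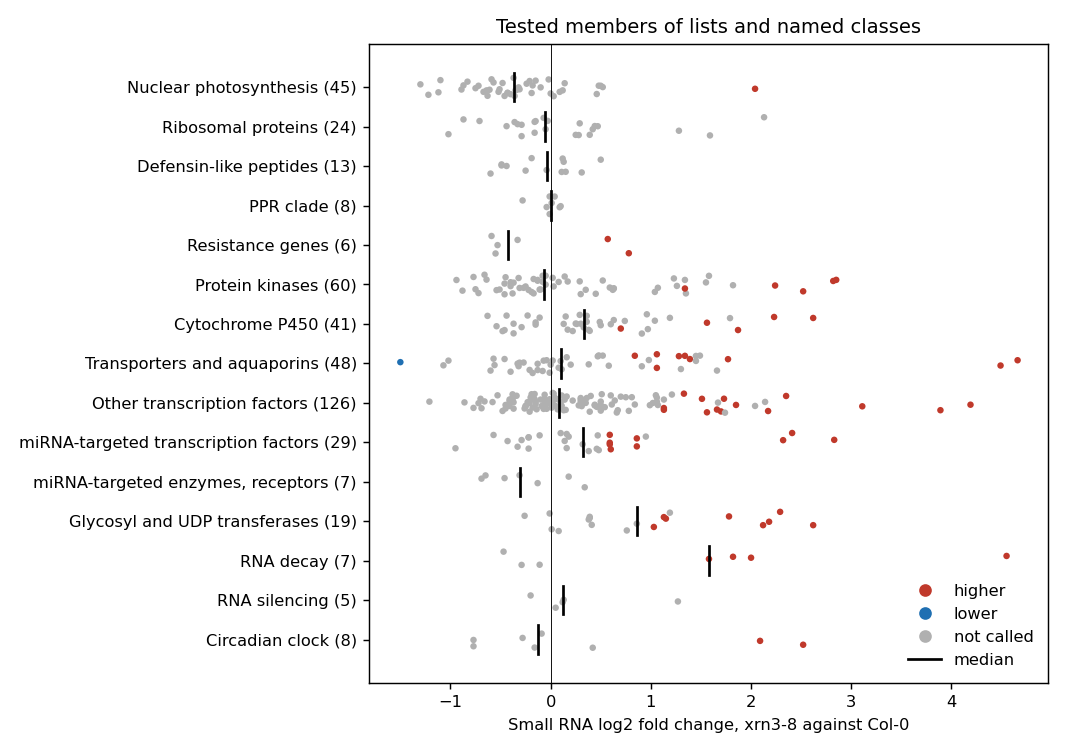
Each point is a tested gene of a list or named class (number tested in parentheses) at its small RNA log2 fold change of xrn3-8 against Col-0, red where higher, blue where lower and grey where not called, with a line at the median. Photosynthesis genes centre at -0.37, the pentatricopeptide repeat clade clusters tightly near 0, and glycosyl transferases and RNA decay genes reach medians of 0.86 and 1.58.

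Beyond named classes, families were read from the stem of gene symbols. Of 54 families with at least 5 tested members, 28 held no called gene and 5 held at least 3 higher genes. These 5 were UGT (7 of 16), SPL (6 of 10), CYP (5 of 41), EMB (3 of 29) and MYB (3 of 8). Beside the 10.8% of all tested protein-coding genes these are shares of 43.8%, 60.0%, 12.2%, 10.3% and 37.5%, so CYP and EMB were near the background. The SPL share rests on genes with matching counts, as described above, and not on 6 measurements. Without xrn3-8 replicate 3 the same 5 stems held at least 3, with UGT at 5 of 17, SPL at 6 of 10, CYP at 3 of 44, EMB at 3 of 33 and MYB at 3 of 8. The stem EMB marks a mutant phenotype and not a shared protein type.

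Genes that gained small RNA often lay next to each other. Of the 482 higher genes, 138 (28.6%) had an adjacent protein-coding gene that was also higher, against 201 of 3924 tested genes that were not called (5.12%). Among genes with at least 1 tested neighbour the shares were 47.9% of 288 and 11.3% of 1775. Of the lower genes 2 of 60 lay beside a higher gene, and 0 beside another lower gene. The 138 genes formed 67 runs, of which 64 were pairs and 3 were longer. Leaving out neighbours with near-identical counts left 136 genes. Without xrn3-8 replicate 3, 125 of 433 higher genes (28.9%) lay next to another, against 193 of 4409 that were not called (4.38%). The reference gives no strand here, and reads over overlapping or antisense genes cannot be told apart, so neighbours may share reads.

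The longest run held 4 genes, AT2G01100, APG2, ORC4 and AT2G01130. AT2G01100 went from 14, 14 and 12 counts to 101, 98 and 132. ORC4, a subunit of the origin recognition complex, held 0, 1 and 0 against 21, 11 and 20, and AT2G01130 held 1, 3 and 1 against 27, 26 and 35. All 4 were higher in every mutant library than in any Col-0 library. Pairs also joined genes of unlike function. XRN4 lay beside AT1G54500, MTR4 beside ARF1, NAC102 beside SHA1, PRR5 beside AT5G24460 and MYB33 beside AT5G06110, and each of these 10 genes was higher. Several classes described above are touched by this, since 4 of the 8 glycosyl transferases, 2 of the 4 RNA decay genes and 2 of the 3 tested SOT genes that rose were beside another higher gene.

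The share of tested protein-coding genes that were higher was 10.2%, 7.53%, 12.4%, 11.3% and 12.3% on chromosomes 1 to 5. The share lower was between 1.22% and 1.46% on each. The shares higher became 8.03%, 6.88%, 10.4%, 8.69% and 9.77% without xrn3-8 replicate 3, again lowest on chromosome 2, and the shares lower 1.28% to 2.21%.

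RNA-seq levels of the same genes were compared as a second readout, although those plants were older and grown on soil. In RNA-seq, 3452 of 20564 nuclear features were higher in xrn3-8 (16.8%) and 3499 lower (17.0%). With library totals in place of TMM factors the numbers were 5785 and 2298, so the split by direction rests on the scaling, which moved the median of all features by 0.14 on the log2 scale. Of the 482 genes higher in small RNA, 441 (91.5%) had enough RNA to be tested, against 20 of the 60 lower genes (33.3%) and 3045 of all 4466 tested protein-coding genes (68.2%). For the genes called without xrn3-8 replicate 3 the shares were 91.5% of the higher and 39.3% of the lower. The genes that lost small RNA lay mostly over loci with little RNA in the RNA-seq seedlings.

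Gains in small RNA did not go with one direction of RNA change. Of the 441 genes, RNA was higher for 94 (21.3%) and lower for 95 (21.5%), and among all 3045 genes tested in both assays for 21.6% and 20.4%. The median RNA log2 fold change was 0.04 in each of these sets. Of the 396 higher genes called without xrn3-8 replicate 3 and tested in both assays, RNA was higher for 19.4% and lower for 22.5%. Single genes went either way. AO1 RNA rose by 1.02 and FKF1 RNA by 3.41 on the log2 scale, while the RNA of EDS1 and NAC102 fell by 1.11 and 1.14. UGT73B2 and UGT73B3, neighbours whose small RNA rose, had RNA log2 fold changes of 1.27 and -1.36. Among the lower genes, AT3G27040 went from 0 RNA-seq counts in each Col-0 library to 23, 34 and 35 in xrn3-8, while its small RNA fell from 36.4 ± 0.999 to 24.8 ± 2.12 CPM (log2 fold change -0.55, adjusted p = 0.014). AT1G66320 moved in the same directions, with RNA-seq counts of 0, 1 and 0 in wild type and 10, 15 and 32 in the mutant, and a small RNA log2 fold change of -1.21. These 2 genes were chosen after their values were seen.

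The share of genes with more small RNA varied with the RNA level. When the 3045 genes were cut into 4 equal bins by their mean Col-0 RNA-seq level, 14.6%, 23.1%, 14.8% and 5.39% were higher in small RNA from the lowest bin to the highest, and 2.89% of the 1421 genes with too little RNA for a test. When xrn3-8 replicate 3 was left out of the small RNA test, the second bin was again highest (18.6%) and the top bin lowest of the 4 (4.72%), and 2.54% of the genes with too little RNA were higher. The RNA-seq tables also count windows named 500 plus a gene identifier, with no source stating on which side of the gene they lie. Of the higher genes, 168 of 464 windows (36.2%) had a higher RNA-seq level in every xrn3-8 library than in any Col-0 library, against 30.5% of the windows of all tested protein-coding genes, and 38.8% for the genes that lay in runs. With the genes called without xrn3-8 replicate 3 these shares were 38.4%, 31.3% and 39.0%.

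**Figure D5:**
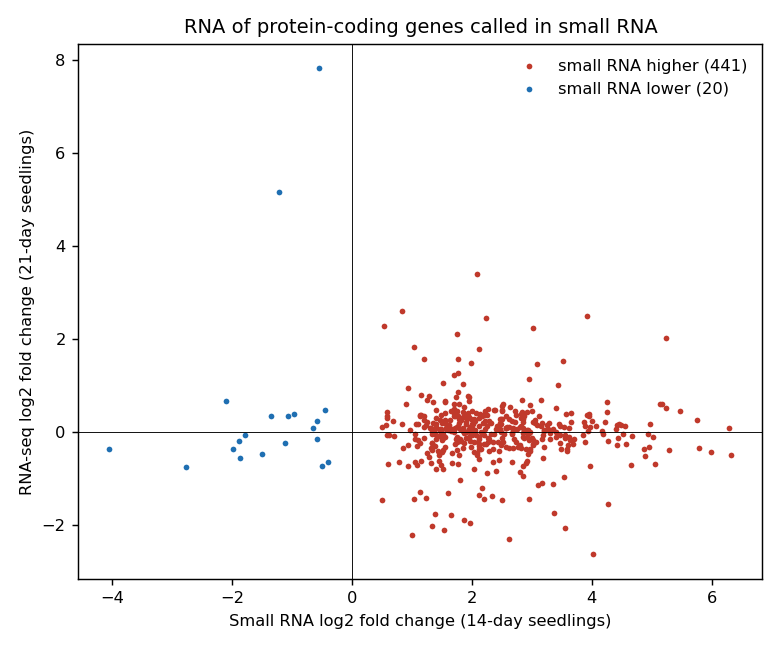
Each point is a protein-coding gene called in small RNA and tested in RNA-seq, with its small RNA log2 fold change in 14-day seedlings on the x axis and its RNA-seq log2 fold change in 21-day seedlings on the y axis. The 441 genes with higher small RNA (red) scatter around an RNA change of 0 (median 0.04), and 2 of the 20 genes with lower small RNA (blue) lie above 5 in RNA.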

How the data were processed

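Per the submitters' processing notes, the small RNA reads were handled with Bowtie, HTSeq, DESeq2 and bedtools and the RNA-seq reads with HISAT2, HTSeq, DESeq2 and bedtools, on the TAIR10 build. Not given in the sources used here are versions, settings and the treatment of reads with several positions. The deposited tables hold raw counts per feature, not normalized. Counter tallies (74.6% to 77.1% of small RNA reads) stayed out of library sizes and tests. Organelle rows held 0 small RNA counts.

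Counts were tested with edgeR 4.0.16 (R 4.3.3), two-sided, without covariates, with filterByExpr at a minimum count of 10, TMM factors, library sizes without XRN3, and Benjamini-Hochberg adjustment over all nuclear features. The fit was tested on simulated data. Standard errors are absolute log2 fold changes over the root of the F statistic. CPM uses the scaled library sizes, given as mean ± SD over 3 libraries. Intervals, floors and depth cover counting error only. Replicates are biological, per the series' design text.

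The gene lists (17 lists, 343 genes, of which the 308 with a matching name in the reference were kept) and 20 classes read from names and synonyms in the TAIR10.1 reference table were chosen with earlier results of these data known. The classes of protein kinases and of defensin-like peptides were narrowed, by name alone, after their values were seen, since their search words had matched metabolic enzymes. Named genes were the 10 largest changes per direction among those averaging 1 CPM or more without overlap, up to 4 called members per list or class by lowest p, up to 3 members per list by level, and fixed pathway members. Alternatives were DESeq2 1.42.0, other scalings and filters, a replicate block, each library left out and, chosen after seeing the data, near-identical loci counted as 1.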

Additional observations from a re-analysis of the deposited data

How the results depend on the processing

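Calls over protein-coding genes depended on the filter, on the number of libraries and on the replicate block. With a minimum count of 30, 207 were higher and 35 lower (257 and 57 over all nuclear features), and without a filter 935 and 214 (1022 and 378, so 73.0% of calls were higher instead of 85.7%). Leaving out each library in turn gave 258 to 443 higher and 22 to 89 lower protein-coding genes, 303 to 508 and 37 to 140 features, and in RNA-seq 2631 to 3276 and 2708 to 3429. With fewer samples tested, a lower number of calls follows in part by construction. RNA-seq with library totals gave 5785 higher and 2298 lower. DESeq2 (501 and 59), other scalings, a robust prior and counting near-identical loci as 1 (477 and 60) stayed within 1.5 times.

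Same-numbered libraries did not deviate together (r = -0.49, 0.05 and -0.17 for small RNA, 0.057, 0.18 and 0.14 for RNA-seq), and in small RNA not every library correlated best with its own number. The replicate block gave 174 higher and 16 lower protein-coding genes (211 and 25 features), and the cause was not tested. Of 1693 recomputed log2 fold changes of the 108 called genes that were named or listed, 0 changed sign and 312 no longer passed. Because these genes were picked as called, a change of sign was unlikely from the start. At a few CPM, depth limits most gains, and a gene that did not pass is not shown to be unchanged.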
